A study of Mus musculus with 10 samples.

Results

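The 38 listed Hox genes of the Hoxa, Hoxb, Hoxc and Hoxd clusters were examined for open chromatin and Sox4 binding in the mouse cochlear duct at E13.5. They were taken by symbol, with 10 genes each in Hoxa and Hoxb and 9 each in Hoxc and Hoxd, out of 20665 autosomal coding genes of the gene table. Every peak between 20 kb before the first and 20 kb after the last listed gene of a cluster was counted with that cluster, so that the 4 intervals together covered 645.047 kb, or 0.0262% of the autosomes. ATAC-seq, in which the Tn5 transposase cuts and tags accessible DNA, was made from unsorted cochlear duct epithelium of SoxC double knockout embryos (2 libraries) and of wildtype embryos (3 libraries). The labels do not name the deleted SoxC genes for these libraries. The strain label of the knockout single-cell library gives Pax2cre with SoxCfl/fl. The sample titles call the tissue whole organ, while the protocol describes epithelium freed with dispase and collagenase. CUT&RUN, which releases the DNA bound by a protein with an antibody and a tethered nuclease, was made with a guinea pig anti-Sox4 antibody on FACS-sorted GFP-positive cells of wildtype p27kip1-GFP ducts (3 replicates, titled ChIP). The labels do not say how many embryos went into a library or whether the replicates were separate animals, so p-values measure the spread between these libraries, which may be technical.

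Hox genes encode homeodomain transcription factors that give cells their position along the head-to-tail axis. Within a cluster the genes lie in a fixed order and are read in the same direction, and the low-numbered genes are used first and farthest towards the head, while the high-numbered genes act in the trunk, limbs, tail and urogenital tract. The inner ear forms beside the hindbrain, where the nearest Hox genes in use are low-numbered ones of the neural tube and neural crest. Silent Hox clusters are a textbook target of the Polycomb complexes, and Trithorax complexes maintain the active ones. SoxC proteins (Sox4, Sox11 and Sox12) are HMG-box transcription factors of progenitors and immature neurons.

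The files gave peaks and no reads, so depth is unknown and peaks were compared by rank. In each library the autosomal peaks were ranked by their -log10 p, and a gene start was called open when one of the 50000 strongest peaks overlapped the 500 bp on either side of it. The knockout lists held 299829 and 266873 peaks, and the wildtype lists 196536, 166874 and 196345. The -log10 p at rank 50000 was 104 and 50.5 in the knockout libraries, against 19.03, 10.5 and 8.75 in the wildtype libraries, and the names of the knockout lists alone gave a p limit of 0.01 and an upper limit on list length. The lowest -log10 p in a list was 3.98 and 2.00 in the knockout and 2.00 in each of the 3 wildtype lists. Genotype and list processing therefore cannot be told apart. As a check of the tissue label, 9 and 9 of 10 otic epithelium starts were open in the knockout libraries and 9, 9 and 8 in the wildtype libraries. In each library 1 of 5 hindbrain and spinal cord starts was open, that of Olig2 in wildtype replicate 2 and that of Egr2 in the others. Of 7 periotic mesenchyme starts 2 and 2 were open in the knockout libraries and 2, 2 and 3 in the wildtype libraries. The deletion itself was not checked here, since peak lists carry no RNA level.

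Very few Hox genes had an open start in this tissue. Of the 38 starts, 7 and 3 were open in the knockout libraries and 4, 3 and 5 in the wildtype libraries, which is 18.4% and 7.89% in the knockout and 10.5%, 7.89% and 13.2% in the wildtype libraries. Over 16457 autosomal coding genes with an annotated start the share was 58.5% and 58.5% in the knockout and 59.2%, 57.7% and 57.5% in the wildtype libraries, and 53.1% of them were open in all 5. Only Hoxa10 and Hoxd10 were open in all 5 libraries, and 31 of the 38 Hox starts were open in none. In the background 62.8% of starts were open in at least 1 library, against 7 of the 38 Hox starts. All background starts and 22 of the Hox starts came from the promoter table. The other 16 Hox starts were gene ends, which may not be the promoters in use. Most of the 22 also lie at an end of the gene's extent, as those of Hoxa3, Hoxa10 and Hoxd11 do. The same limit therefore holds for them. Among the 22, only Hoxa10, Hoxd10, Hoxd9 and Hoxd1 were open in any library.

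Hoxa10 and Hoxd10 pattern the lower trunk and the hindlimb, and Hoxa10 also the uterus. The strongest peak at the Hoxa10 start ranked 14002 and 27840 in the knockout libraries and 27952, 30542 and 25342 in the wildtype libraries. At the Hoxd10 start the ranks were 23686 and 42368 in the knockout and 18601, 38462 and 45554 in the wildtype libraries. The knockout and wildtype ranks overlapped at both starts. Hoxd1, a gene of nociceptive sensory neurons in the mouse, had a peak at ranks 36940 and 55433 in the knockout and 28464, 37145 and 49231 in the wildtype libraries, so it was open in 4. Hoxd9, a gene of the lower trunk and limb, was also open in 4, with ranks of 46143 and 48440 in the knockout and 41241, 57781 and 45555 in the wildtype libraries. The remaining open starts were Hoxc10, open in knockout replicate 1 and wildtype replicate 3, and Hoxa4 and Hoxb5, each open in knockout replicate 1 alone at ranks 39143 and 34827. By paralogue group, 4 of 16 starts of groups 9 to 13, 1 of 11 of groups 5 to 8 and 2 of 11 of groups 1 to 4 were open in at least 1 library.

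The promoters of the 4 genes open in at least 4 libraries are printed here, with those of the neighbours of Hoxa10 and Hoxd10 that had no peak of any rank in any ATAC list, Hoxa9, Hoxa11 and Hoxd11. The 7 were chosen after their values were seen. Each runs from 250 bases before to 50 bases after the start, 5′ to 3′ on the gene's strand, from RefSeq (GRCm38.p6), with CpG dinucleotides in capitals. The intervals are chr6:52240805-52241104 on the minus strand for Hoxa10, chr2:74691641-74691940 for Hoxd10, chr2:74697513-74697812 for Hoxd9 and chr2:74762730-74763029 for Hoxd1, these 3 on the plus strand. Hoxa9 is at chr6:52227321-52227620 and Hoxa11 at chr6:52245761-52246060, both on the minus strand, and Hoxd11 at chr2:74679308-74679607 on the plus strand.
Hoxa10: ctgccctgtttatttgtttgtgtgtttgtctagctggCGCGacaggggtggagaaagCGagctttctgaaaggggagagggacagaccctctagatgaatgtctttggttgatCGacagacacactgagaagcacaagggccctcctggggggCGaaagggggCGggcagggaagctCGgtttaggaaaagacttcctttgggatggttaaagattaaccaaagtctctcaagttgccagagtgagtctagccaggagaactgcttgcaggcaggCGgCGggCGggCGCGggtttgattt
Hoxd10: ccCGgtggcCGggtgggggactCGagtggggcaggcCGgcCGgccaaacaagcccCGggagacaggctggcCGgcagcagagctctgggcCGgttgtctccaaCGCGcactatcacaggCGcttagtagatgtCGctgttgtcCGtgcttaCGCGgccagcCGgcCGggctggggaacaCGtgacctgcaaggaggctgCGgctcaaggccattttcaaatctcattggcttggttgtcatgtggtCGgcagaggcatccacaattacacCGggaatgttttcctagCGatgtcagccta
Hoxd9: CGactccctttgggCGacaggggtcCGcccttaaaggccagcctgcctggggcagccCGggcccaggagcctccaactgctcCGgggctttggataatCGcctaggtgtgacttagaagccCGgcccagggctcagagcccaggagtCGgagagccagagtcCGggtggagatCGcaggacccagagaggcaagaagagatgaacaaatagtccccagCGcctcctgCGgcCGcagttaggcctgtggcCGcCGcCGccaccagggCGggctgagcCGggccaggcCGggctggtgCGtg
Hoxd1: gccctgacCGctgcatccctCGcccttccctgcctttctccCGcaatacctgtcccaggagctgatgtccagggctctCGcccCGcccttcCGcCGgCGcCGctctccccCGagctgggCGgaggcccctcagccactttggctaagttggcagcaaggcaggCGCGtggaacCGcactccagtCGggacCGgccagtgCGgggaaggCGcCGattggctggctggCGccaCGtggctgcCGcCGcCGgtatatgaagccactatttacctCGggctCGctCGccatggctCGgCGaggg
Hoxa9: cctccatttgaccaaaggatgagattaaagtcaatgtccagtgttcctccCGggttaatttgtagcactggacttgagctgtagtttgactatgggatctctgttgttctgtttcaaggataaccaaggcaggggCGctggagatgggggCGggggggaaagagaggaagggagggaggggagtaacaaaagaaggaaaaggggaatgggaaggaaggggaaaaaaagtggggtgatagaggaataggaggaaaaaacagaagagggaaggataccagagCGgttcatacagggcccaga
Hoxa11: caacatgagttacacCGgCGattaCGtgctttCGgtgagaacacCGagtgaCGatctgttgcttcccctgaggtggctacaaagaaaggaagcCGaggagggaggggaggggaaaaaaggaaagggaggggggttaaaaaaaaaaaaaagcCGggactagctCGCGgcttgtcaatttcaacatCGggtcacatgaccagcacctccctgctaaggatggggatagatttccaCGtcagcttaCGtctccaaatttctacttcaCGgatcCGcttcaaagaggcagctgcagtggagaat
Hoxd11: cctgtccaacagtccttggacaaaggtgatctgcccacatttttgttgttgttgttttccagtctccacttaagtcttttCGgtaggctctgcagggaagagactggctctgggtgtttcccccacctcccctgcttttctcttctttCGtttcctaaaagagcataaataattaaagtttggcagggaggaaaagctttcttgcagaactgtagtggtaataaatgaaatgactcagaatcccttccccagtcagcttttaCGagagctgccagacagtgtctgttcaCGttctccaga

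The open promoters of Hoxd10, Hoxd9 and Hoxd1 held 22, 20 and 29 CpG dinucleotides, and that of Hoxa10 held 12, while Hoxa9 and Hoxd11 held 4 each and Hoxa11 held 15, more than the open Hoxa10. Over the 22 Hox genes in the promoter table, the 4 open in at least 4 libraries had a median of 21 CpG dinucleotides and 65.5% GC. The 8 with no peak in any list had a median of 11 CpG dinucleotides and 50.3% GC, with ranges that overlapped those of the open promoters. The corresponding medians over all coding genes were 22 and 62.0% for those open in all 5 libraries and 3 and 47.0% for those open in none. Hoxa13, with 45 CpG dinucleotides, and Hoxd13, with 37, were the richest of the 22 and were open in no library. The Sox-type HMG-box motif ACAAAG, searched on both strands, was in 6 of the 22 Hox promoters (27.3%, against 16.5% of all coding promoters), and its variant ACAATG was in 0 of 22 (10.7% of all). Neither motif was in the 4 promoters open in at least 4 libraries. The Hox-Pbx motif TGATNNAT was in 3 of the 22 (13.6%, against 7.68%), the Meis motif TGACAG in 2 (9.09%, against 18.5%), the CCAAT box in 14 (63.6%, against 38.9%) and the TATAAA box in 3 (13.6%, against 13.53%). These matches describe the letters of the windows and not binding.

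**Figure D1:**
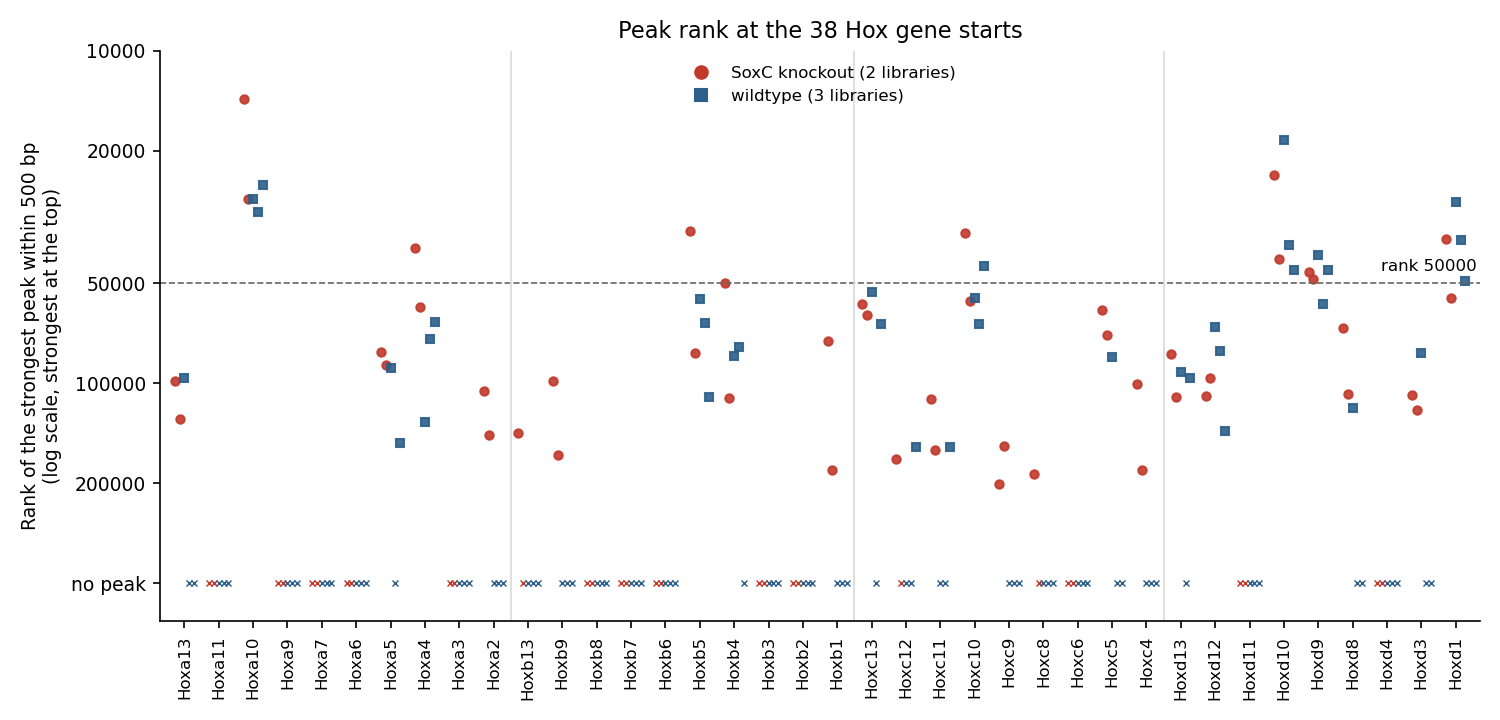
Rank of the strongest ATAC peak within 500 bp of each of the 38 Hox gene starts (vertical log axis, strongest at the top), with SoxC knockout libraries as red circles and wildtype libraries as blue squares, and crosses at the bottom for libraries with no peak. Only Hoxa10 and Hoxd10 have all 5 points above the dashed line at rank 50000, and 13 genes have crosses only.

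Weaker peaks were more common at Hox starts and were unevenly spread over the libraries. A peak of any rank lay at 25 and 22 of the 38 starts in the knockout lists, against 16, 9 and 13 in the wildtype lists, which did not overlap. Over all coding starts the share with such a peak was 69.5% and 68.7% in the knockout lists. It was 67.0%, 65.2% and 65.3% in the wildtype lists, so these shares did not overlap either. These lists differ in length, so each was also limited to its 145099 strongest peaks, the length of the shortest. At that equal number 22 and 17 Hox starts had a peak in the knockout libraries, or 57.9% and 44.7%, against 16, 9 and 10 in the wildtype libraries, or 42.1%, 23.7% and 26.3%. The mean was 19.5 ± 3.54 (SD, n = 2) in knockout and 11.7 ± 3.79 (SD, n = 3) in wildtype libraries, a difference of 7.83 starts with an exact two-sided permutation p of 0.2, where 0.1 is the smallest p that 10 splits allow. The groups did not overlap and the lowest knockout count was 1 start above the highest wildtype count. At the equal number the share of all coding starts with a peak was 67.7% and 67.2% in the knockout and 66.4%, 65.2% and 64.4% in the wildtype libraries. The groups did not overlap there either, with smaller differences than at the Hox starts. The limit to an equal number was added after the data were seen.

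Named by gene, 13 Hox starts had no peak in any of the 5 full lists (34.2% of 38, against 27.6% of all coding starts). These were Hoxa3, Hoxa6, Hoxa7, Hoxa9 and Hoxa11, then Hoxb2, Hoxb3, Hoxb6, Hoxb7 and Hoxb8, then Hoxc6, Hoxd4 and Hoxd11. A peak in both knockout lists and no wildtype list was found at 5 starts: Hoxa2, which sets the identity of the second pharyngeal arch, Hoxb1, which sets that of rhombomere 4, and Hoxb9, Hoxc4 and Hoxc9, genes of the neck and thorax. In the background 1.51% of starts had that pattern. No Hox start had a peak in a wildtype list without one in a knockout list, but the full knockout lists are the longer ones. The share of all coding starts with that opposite pattern was not counted for the full lists. At the equal number of peaks Hoxa2 alone remained of these 5, at ranks 105492 and 143198, against a background of 1.14%, and 0 Hox starts showed the opposite pattern, against 0.182%. Rank 143198 is just inside the limit of 145099.

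**Figure D2:**
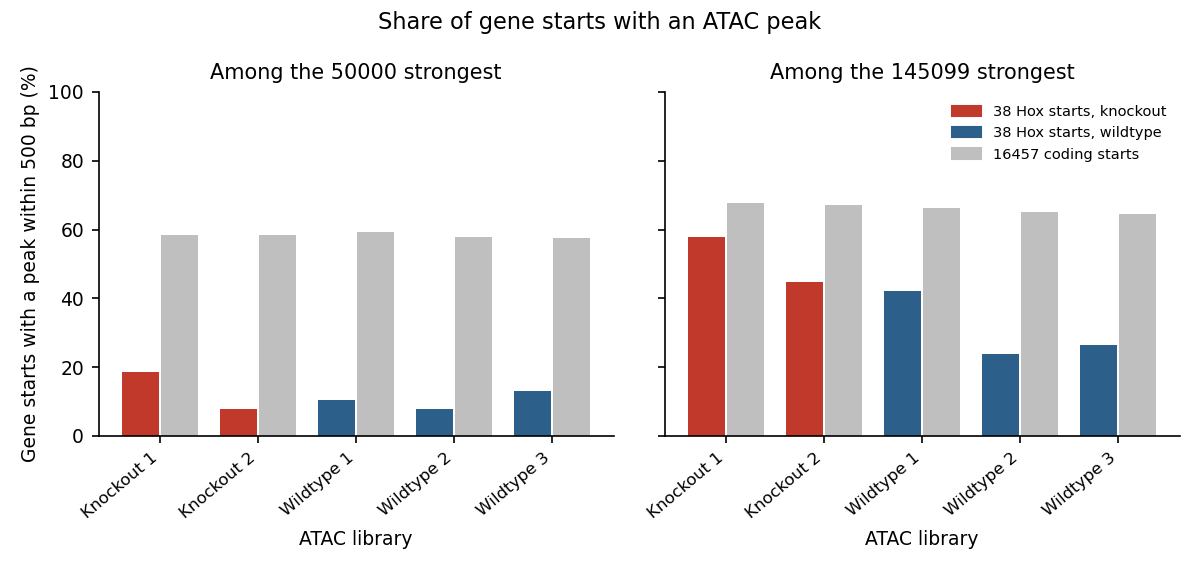
Share of the 38 Hox starts (red for SoxC knockout, blue for wildtype) and of 16457 coding starts (grey) with an ATAC peak within 500 bp, in percent, for each library, among the 50000 strongest peaks (left) and the 145099 strongest (right). Hox shares lie between 7.89% and 18.4% on the left and between 23.7% and 57.9% on the right, with every Hox bar under its grey bar.

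Away from the starts, the clusters held more strong peaks than their starts did. The summits of the 50000 strongest peaks were widened by 250 bp on each side and merged across the 5 libraries, which gave 27 regions in the 4 intervals out of 76109 on the autosomes. Of these, 8 lay in Hoxa, 7 in Hoxb, 2 in Hoxc and 10 in Hoxd, with 7 regions within 500 bp of a listed start and 17 more than 2000 bp away. Regions shared by all 5 libraries numbered 5 of the 27, or 18.5%, against 37.2% of all autosomal regions. With the 100000 strongest peaks they were 22 of 71, or 31.0%, against 31.4% of all regions, so the share was under the background at 50000 peaks and near it at 100000. None of the 27 had a peak among the 10000 strongest of any library. The best rank was 10824 and 18495 in the knockout libraries and 18601, 25676 and 25342 in the wildtype libraries. Counted over the whole intervals, there were 40.3 and 34.1 kept peaks per Mb in the knockout and 24.8, 17.1 and 21.7 in the wildtype libraries, against 20.3 per Mb over the autosomes in every library. Wildtype replicate 2 alone was under the autosomal density. Of the 27 regions, 17 were neither shared nor specific to a genotype by the rule used here, and 3 were found in 1 library only.

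Hoxd was the cluster with the most shared regions, 4 of the 5. The region with the best worst rank of all, chr2:74715691-74716223 (mm10), lay inside the annotated extent of Hoxd3, a gene of the neck vertebrae, 3964 bp downstream of its start. It ranked 15214 and 18495 in the knockout and 21647, 25676 and 26293 in the wildtype libraries, and the fold enrichment over local background, the authors' value, was 18.5 and 18.7 in the knockout and 13.3, 8.40 and 7.25 in the wildtype libraries. Another pair of shared regions lay upstream of Hoxd13, the digit and genital gene at the end of the cluster. The nearer, chr2:74663490-74664005, was 4478 bp before the start, with ranks of 35179 and 26824 in the knockout and 22013, 40475 and 42306 in the wildtype libraries. The farther, chr2:74661723-74662251, was 6238 bp before it, with ranks of 22588 and 46358 in the knockout and 37668, 38461 and 37071 in the wildtype libraries. It fell outside the naming rule and was named after its values were seen. The Hoxd13 start itself was open in no library. The fourth shared region, chr2:74691516-74692041, was the Hoxd10 start described above.

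Along Hoxd the regions were spread from these upstream sites through the starts of Hoxd10 and Hoxd9 to Hoxd3 and the Hoxd1 start, which lies at chr2:74762692-74763218. The longest stretch without any region was 33.525 kb, and it held the start of Hoxd4, a gene of the hindbrain and neck. In the wildtype libraries Hoxd held 8, 6 and 8 of the 16, 11 and 14 kept peaks of the 4 clusters, and in the knockout libraries 9 and 8 of 26 and 22.

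In Hoxa, 1 region was shared, chr6:52240297-52240822, inside Hoxa10 and 295 bp downstream of its start. Its fold enrichment was 16.7 and 13.52 in the knockout and 10.96, 7.44 and 7.20 in the wildtype libraries. Of 3 Hoxa regions found in 4 libraries, the 2 strongest are given here, chosen after their values were seen. One, chr6:52211480-52211987, lay in the annotated extent of Hoxa3, 1334 bp downstream of its start and next to the start of Hoxa6, and ranked 10824 and 21083 in the knockout and 24718 and 31952 in wildtype replicates 1 and 2, and 54765 in wildtype replicate 3. Another, chr6:52221525-52222040 between Hoxa7 and Hoxa9, ranked 16140 and 19418 in the knockout and 26577, 63872 and 44254 in the wildtype libraries. The starts of Hoxa3, Hoxa6, Hoxa7 and Hoxa9, which flank these sites, had no peak in any list. RNA was not analysed here.

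In Hoxb no region was shared by all 5 libraries. The strongest, chr11:96311499-96312007, lay inside the extent of Hoxb3, 4652 bp downstream of its start and before the start of Hoxb4, and ranked 11536 and 27196 in the knockout and 33138, 30221 and 70096 in the wildtype libraries. A region 2943 bp upstream of Hoxb8, chr11:96278709-96279215, ranked 16816 and 28281 in the knockout libraries and 68213 and 34510 in wildtype replicates 1 and 3, with no peak in wildtype replicate 2. All 7 regions of Hoxb lay between the starts of Hoxb13 and Hoxb4. Beyond them a stretch of 76.247 kb with the starts of Hoxb4, Hoxb2 and Hoxb1, and one of 60.517 kb with the start of Hoxb13, had no strong peak in any library.

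Hoxc was the cluster with the fewest regions, 2. One lay 2947 bp upstream of Hoxc8, a gene of the thorax, at chr15:102987323-102987862, and ranked 11473 and 20651 in the knockout and 44240, 61644 and 26222 in the wildtype libraries. The other was the start of Hoxc10, a hindlimb motor neuron gene. The stretches on either side, 68.994 kb with the starts of Hoxc8, Hoxc6, Hoxc5 and Hoxc4 and 65.233 kb with those of Hoxc13, Hoxc12 and Hoxc11, held no strong peak. Hoxc density was 12.8 and 6.42 kept peaks per Mb in the knockout and 6.42, 0 and 12.8 in the wildtype libraries, and in Hoxd it was 65.7 and 58.4 in the knockout and 58.4, 43.8 and 58.4 in the wildtype libraries. All Hoxd values were above all Hoxc values.

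**Figure D3:**
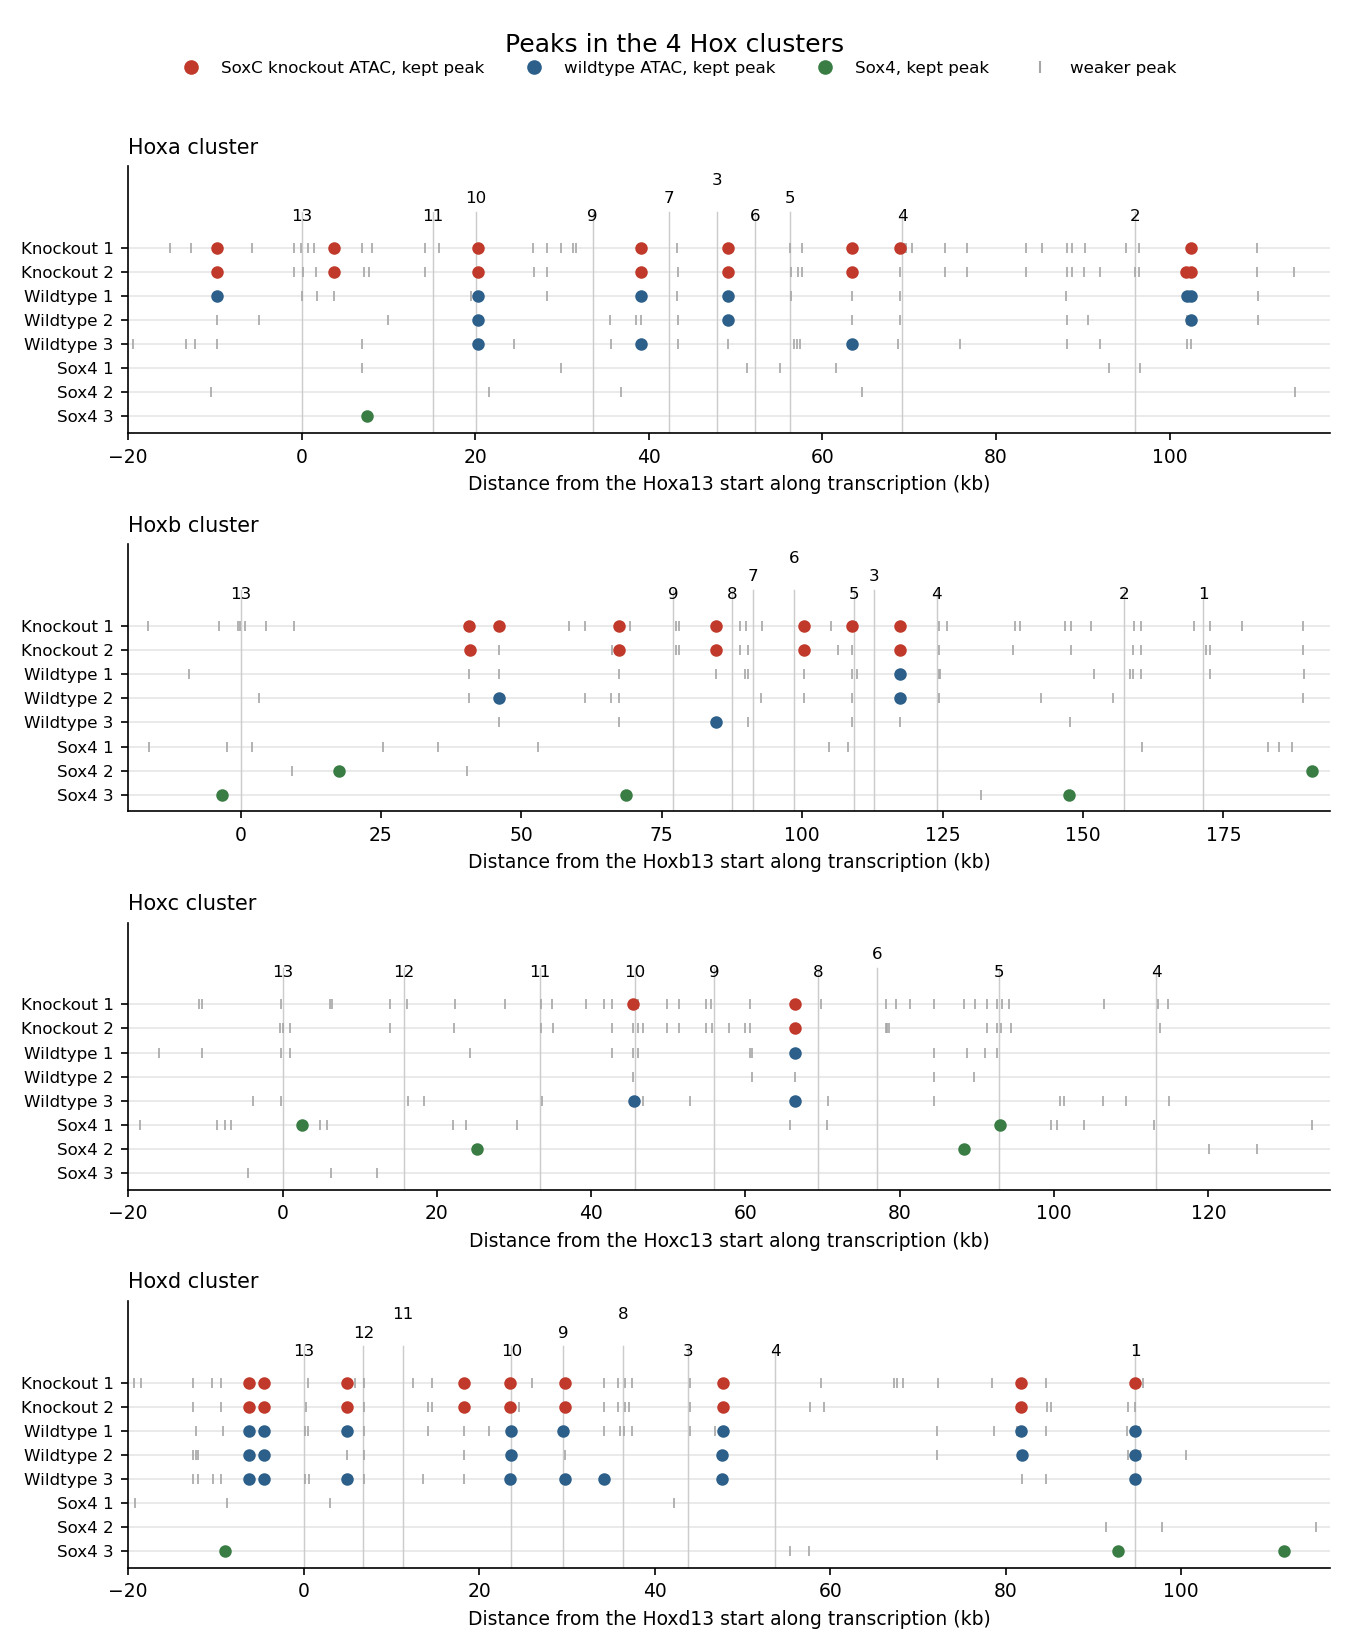
Peaks in the 4 Hox clusters for 2 SoxC knockout (red) and 3 wildtype (blue) ATAC libraries and 3 Sox4 replicates (green), plotted as distance in kb from the start of the group 13 gene along the direction of transcription, with numbers and grey lines at gene starts. Large points are peaks among the 50000 strongest (ATAC) or 20000 strongest (Sox4), ticks are weaker peaks, and columns with points in all 5 ATAC rows, 4 in Hoxd and 1 in Hoxa, are the shared regions.

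The genotype comparison asked whether the Hox clusters differed in strong peaks when SoxC was deleted. Over the 4 clusters 26 and 22 of the 50000 strongest peaks fell in the intervals in the knockout libraries, against 16, 11 and 14 in the wildtype libraries. The mean was 24.0 ± 2.83 (SD, n = 2) in knockout and 13.7 ± 2.52 (SD, n = 3) in wildtype libraries, a difference of 10.3 peaks (exact two-sided permutation p = 0.1, the smallest possible, and 0.30 after Benjamini-Hochberg adjustment over 6 tests). The groups did not overlap, but the difference did not pass the test, and no difference could in this design. Of 12946 autosomal stretches of the mean cluster length of 161.262 kb that held a kept peak, 15.4% had both knockout counts above all 3 wildtype counts and 18.6% had the opposite. A stretch is as long as a single cluster, so these shares are not like for like with a sum over 4 clusters. At the equal number of 145099 peaks the counts over the 4 clusters were 84 and 71 in the knockout and 68, 52 and 54 in the wildtype libraries. The difference was 19.5 (exact permutation p = 0.2). Of single stretches 18.0% had both knockout counts above all wildtype counts, with the same limit on the comparison.

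Hoxb and Hoxa made up most of the difference. Hoxb held 7 and 5 strong peaks in the knockout and 1, 2 and 1 in the wildtype libraries, with means of 6.0 ± 1.41 (SD, n = 2) and 1.33 ± 0.577 (SD, n = 3) and a difference of 4.67 (exact permutation p = 0.1, adjusted 0.30). Hoxa held 8 and 8 in the knockout and 6, 3 and 3 in the wildtype libraries, a difference of 4.0 (exact permutation p = 0.2, adjusted 0.40). In both clusters the knockout counts lay above all wildtype counts, a pattern of 15.4% of stretches in the background. Hoxd held 9 and 8 in the knockout and 8, 6 and 8 in the wildtype libraries, a difference of 1.17 (exact permutation p = 0.6, adjusted 0.70), and Hoxc held 2 and 1 in the knockout and 1, 0 and 2 in the wildtype libraries, a difference of 0.5 (p = 0.7, adjusted 0.70, exact permutation). The groups overlapped in Hoxd and in Hoxc. The count of open Hox starts differed by 1.0 (exact permutation p = 0.7, adjusted 0.70), with overlapping groups and the opposite sign without knockout replicate 1 (-1.0).

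Markers of other cells were set beside these counts. Over all coding starts 58.5% and 58.5% were open in the knockout and 59.2%, 57.7% and 57.5% in the wildtype libraries. Of 5 neuron and glia starts, 1 and 1 were open in the knockout libraries and 3, 2 and 2 in the wildtype libraries. Of 5 blood, endothelium and macrophage starts 1 and 0 were open in the knockout and 1, 1 and 1 in the wildtype libraries. Of all coding starts, 69.5% and 68.7% had a peak of any rank in the knockout and 67.0%, 65.2% and 65.3% in the wildtype lists. Of 5 hindbrain and spinal cord starts, 5 and 5 had such a peak in the knockout lists and 3, 2 and 3 in the wildtype lists. The counts were the same at the equal number of 145099 peaks. Pax7 and Nkx2-2, dorsal and ventral neural tube genes named after their values were seen, had a peak in both knockout lists and no wildtype list, as Hoxa2 did. In the background 1.51% of starts had that pattern in the full lists and 1.14% at the equal number. The rest of the hindbrain and spinal cord list was mixed. Lhx1 ranked 88388 and 92651 in the knockout and 111943, 119457 and 109631 in the wildtype libraries. Olig2 went the other way, at 101259 and 85058 against 64986, 31058 and 66473. Egr2 ranked 29143 and 26573 against 13030 and 29575 in wildtype replicates 1 and 3, with no peak in wildtype replicate 2. Col3a1, a periotic mesenchyme gene, had the pattern of Pax7 in the full lists but not at the equal number. Of 10 otic epithelium starts, 10 and 10 had a peak of any rank in the knockout and 10, 10 and 9 in the wildtype lists. The part of these cell types in the Hox counts was not tested. In bulk tissue a change in the share of cells and a change within cells cannot be told apart.

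**Figure D4:**
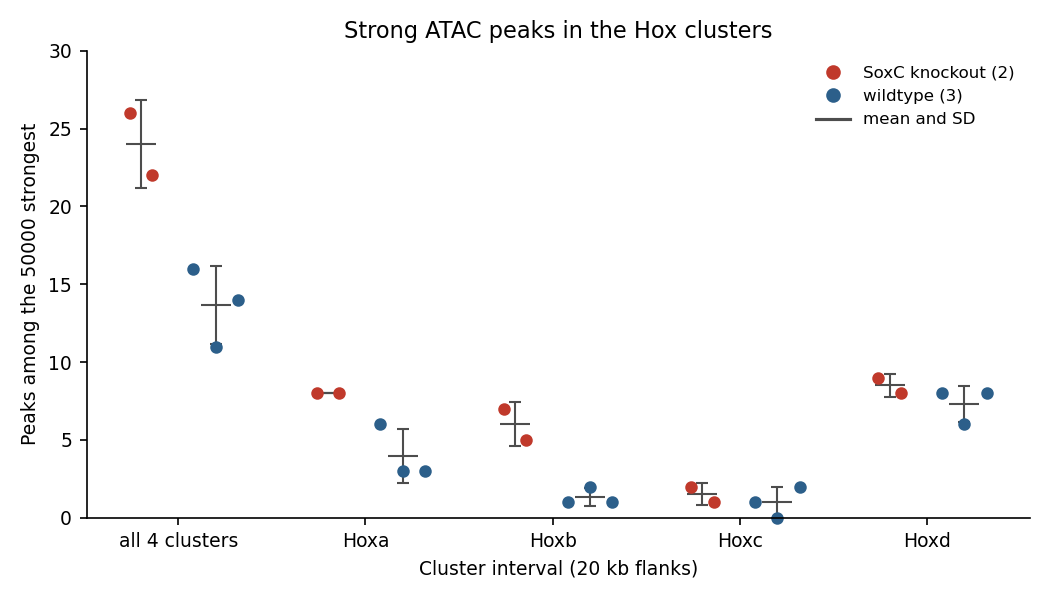
Number of the 50000 strongest ATAC peaks of each library that fell in the 4 Hox intervals and in each one, with 2 SoxC knockout libraries (red, left) and 3 wildtype libraries (blue, right) as points and the mean with its SD in grey. Knockout points lie above all wildtype points in Hoxb (7 and 5 against 1, 2 and 1) and Hoxa (8 and 8 against 6, 3 and 3), and overlap with them in Hoxc and Hoxd.

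Region by region, 5 of the 27 were found in both knockout and no wildtype library (18.5%, against 7.96% of all autosomal regions), and 0 in all 3 wildtype and no knockout library (6.56% of all). Of the 5, Hoxb held 3. The strongest, chr11:96294454-96294955 inside Hoxb6, a gene of the thorax, ranked 23696 and 29611 in the knockout libraries, against 50241 and 61138 in wildtype replicates 1 and 2 and no peak in wildtype replicate 3. Rank 50241 is just outside the 50000 kept. A second, chr11:96261481-96261982, lay 9599 bp upstream of the rib-patterning gene Hoxb9 and ranked 27211 and 43755 in the knockout and 78666, 65878 and 70094 in the wildtype libraries. The third, chr11:96234833-96235344, lay 36242 bp upstream of Hoxb9 and ranked 30173 and 44735 in the knockout and 116015 and 77959 in wildtype replicates 1 and 2, with no peak in wildtype replicate 3.

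Hoxa and Hoxd held 1 such region each. That of Hoxa, chr6:52256884-52257385, lay 3746 bp downstream of the start of Hoxa13, the limb and hindgut gene, and outside its annotated extent. It ranked 36213 and 46852 in the knockout and 87022 in wildtype replicate 1, with no peak in wildtype replicates 2 and 3. That of Hoxd, chr2:74686228-74686736, lay in the overlapping extents of Hoxd10 and Hoxd11 and ranked 34946 and 45098 in the knockout and 72050, 67060 and 64257 in the wildtype libraries. Each of the 5 therefore had a weaker peak in at least 1 wildtype list, and the regions of Hoxd and of Hoxb at 9599 bp from Hoxb9 had one in all 3. Over all 27 regions, both knockout lists held a peak at 27 and all 3 wildtype lists at 22. These 2 counts are not like for like, since the full knockout lists are longer and a peak in 2 lists is easier to reach than in 3. The same shares over all autosomal regions were not counted. With the 100000 strongest peaks, knockout-only regions were 3 of 71, or 4.23%, under the 7.22% of all regions. With the 25000 strongest they were 2 of 11, or 18.2%, against 8.82% of all regions. The share was thus above background at 25000 and 50000 peaks and not at 100000.

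Sox4 binding was then set beside the open regions. The 20000 strongest Sox4 peaks per replicate gave 57773 windows on the autosomes, of which 13 fell in the Hox intervals, 2 in replicate 1, 4 in replicate 2 and 7 in replicate 3. Each of the 13 was found in 1 replicate only, so no Hox cluster held a site found in at least 2 replicates, against 2.95% of all windows. None of the 13 overlapped a strong ATAC peak of any library, against 10.9% of all windows, and 5 of the 13 overlapped an ATAC peak of any rank, against 20.2%. None of the 27 open regions overlapped a Sox4 peak of any rank in the 3 replicates, against 18.6% of all regions. In the further list deposited for replicate 1, 3 of the 27 did, against 27.2% of all, namely the strongest region of Hoxb inside Hoxb3 and the knockout-only regions at 36242 bp from Hoxb9 and in the extents of Hoxd10 and Hoxd11. The Sox4 ranks were coarse, because 16258 peaks of replicate 1 shared the -log10 p of the last peak kept (6.16).

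The strongest Sox4 window of Hoxc, chr15:103009147-103009647 inside Hoxc6, ranked 4067 in replicate 2 with a -log10 p of 7.80, which 1634 peaks of that list shared. In Hoxd the strongest was chr2:74659019-74659519, 8956 bp upstream of Hoxd13, at rank 4683 in replicate 3 with a -log10 p of 6.11, shared by 2277 peaks. In Hoxa it was chr6:52253121-52253621, 7509 bp downstream of the Hoxa13 start, at rank 5252 in replicate 3. That of Hoxb, chr11:96384762-96385262, ranked 6680 in replicate 2 and lay 19254 bp past the start of Hoxb1. The window at a listed Hox start, chr15:103013861-103014361, lay 103 bp downstream of the Hoxc5 start, at rank 6258 in replicate 1, and was named after its position was seen. Distances were taken to the listed Hox starts only, and starts of other genes in the intervals were not checked.

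The Hoxd window was the one overlap between replicates in the full lists. There, 70 Sox4 peak regions lay in the Hox intervals and 1 of them (1.43%) was in at least 2 replicates, against 3.21% of 260326 autosomal regions. It combined the replicate 3 peak with a replicate 1 peak at rank 21489, whose -log10 p of 6.16 equalled that of the last one kept. When all peaks tied with the last were kept, a choice added after the data were seen, this became 1 site in at least 2 replicates. With the further list of replicate 1 in its place, the 1 site was instead chr11:96262730-96263451, 8240 bp upstream of Hoxb9. Which position counted as a repeated Sox4 site thus depended on the list, and there was at most 1 under each of these choices.

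Genes that act with or on Hox clusters were compared with the background of 53.1% of coding starts open in all 5 libraries. Among Polycomb genes, 11 of 13 with a start were open in all 5 libraries, and 13 and 13 were open in the knockout against 12, 12 and 12 in the wildtype libraries. Trithorax genes were open in all 5 libraries in 4 of 6 cases, and the TALE cofactors, which bind DNA beside Hox proteins, in 3 of 5. Of genes upstream of Hox genes, such as retinoic acid receptors and enzymes and Cdx factors, 6 of 15 were open in all 5 and 4 of 15 in none.

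Within 20 kb of these genes, knockout-only and wildtype-only regions numbered 11 and 4 of 91 for Polycomb, 4 and 0 of 38 for Trithorax, 8 and 3 of 94 for TALE and 11 and 2 of 116 for upstream genes. Beside the background of 7.96% and 6.56%, Ezh1 and Ring1, a Polycomb methyltransferase and a ubiquitin ligase, had 3 knockout-only regions each and Jarid2, a Polycomb cofactor, had 2 wildtype-only regions. Meis2, a TALE cofactor, had 1 region of each kind, and Pbx4, another, had 1 knockout-only region. Rarb, a retinoic acid receptor, had 1 knockout-only and 2 wildtype-only regions, Rara 2 knockout-only and Rxra 1 knockout-only. Kmt2b, Men1 and Rbbp5 of the Trithorax list had 1 knockout-only region each.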

How the data were processed

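Peak lists of 5 ATAC libraries and 3 Sox4 CUT&RUN replicates were used, 1 list per library, grouped by title and genotype label. The authors deposited MACS2 narrowPeak lists, in which the fold enrichment is a ratio of a peak to the local background of its own library and the significance is a -log10 p. Per the submitters' processing notes the tools were STAR, MACS2 and deepTools, with UMI-tools added for the Sox4 libraries, and the build was mm10 (GRCm38). Their versions and the fixed settings are not given in the sources used here, apart from the p limit of 0.01 in the names of the knockout lists. The 2 single-cell matrices, deposited without gene names, were not analysed here, and a further list of Sox4 replicate 1 was used as an alternative only.

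Overlapping autosomal peaks of a library were merged with the strongest summit kept and ranked by -log10 p, with ties broken by fold and position. The 50000 strongest ATAC and 20000 strongest Sox4 peaks were kept, and windows of 501 bp around summits were merged into regions. Starts of 22 Hox genes came from the RefSeq promoter table (GRCm38.p6) and of the other 16 from the end of the gene's extent in the RefSeq gene table, which gives no exons. Genotype counts were compared over libraries by an exact two-sided permutation test over 10 splits with Benjamini-Hochberg adjustment over 6 tests. Named regions were up to 3 shared regions per cluster by best worst rank, all genotype-specific regions, and the strongest Sox4 window per cluster, with up to 3 genes per context list in list order, of which 1 is not reported here. The members, lists and rules were chosen with earlier results of these data known. Replicates 1 and 2 of both genotypes share numbers, and the labels do not say that a number marks a shared batch. Python 3.11.15, numpy 2.4.6 and pandas 2.3.3 were used, and the procedure was tested on simulated data.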

Additional observations from a re-analysis of the deposited data

How the results depend on the processing

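Over the 4 clusters the knockout minus wildtype difference in strong peaks stayed above 0 under all 11 alternatives (5.67 to 12.3), as it did in Hoxa (2.17 to 5.0) and Hoxb (1.5 to 5.67). No test passed a threshold of 0.05, which the design does not allow. In Hoxd the difference was -1.0 with the 100000 strongest peaks and -0.333 when peaks were ranked by fold, and in Hoxc it was 0 under 2 alternatives. The difference in open starts was -1.0 without knockout replicate 1. The cause of these was not tested. With 25000 peaks knockout-only regions numbered 2, shared regions 0 and starts open in all 5 libraries 0. With 100000 peaks there were 1 wildtype-only, 3 knockout-only and 22 shared regions and 5 such starts. Shared regions numbered 3 without the flanks. Counting a peak anywhere in the gene body, an alternative added after the data were seen, gave 4 starts open in all 5. Leaving out 1 library at a time gave 0 to 1 wildtype-only regions (1 without knockout replicate 1), 5 to 7 knockout-only regions and 5 to 9 shared regions (9 without wildtype replicate 2 and 9 without wildtype replicate 3). Sox4 sites numbered 1 with 39000 peaks, with the further list of replicate 1 and with ties kept.

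With a replicate block of the pairs numbered 1 and 2, the differences were 10.5 over the 4 clusters, 3.5 in Hoxa, 4.5 in Hoxb, 1.0 in Hoxc, 1.5 in Hoxd and 1.5 for open starts, with exact permutation p-values of 0.5 to 1.0. The smallest p that 2 pairs allow is 0.5, so the block could not have changed a call and only the sizes are informative. Deviations of same-numbered libraries correlated at r = 0.125 for pair 1 and 0.0532 for pair 2 over 12946 stretches. Depth is unknown for all lists, so no counting error could be given, and equal ranks carry different significance in the knockout and wildtype libraries.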
